A study of Mus musculus with 20 samples.

Results

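The genes described here make, regulate, take up and export cholesterol, and were followed in mouse hepatoma cells given TGFβ1. They were chosen by symbol for their known roles, with earlier results of these data known. Of 32 genes, 29 were measured among 18193 genes in all. The 29 comprised 6 enzymes of the mevalonate steps, 11 enzymes of the sterol steps, 5 regulators around the transcription factor SREBP, 4 genes of uptake and intracellular transport and 3 genes of efflux. Acat2, Soat1 and Nr1h2 were not analysed here.

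Hepa1-6 is an established line derived from a liver tumour of a C57L mouse. All cultures, the controls included, had been kept in medium depleted of growth factors for 4 h. Treated cells received 1 ng/ml of TGFβ1 and untreated cells received none. RNA was taken at 0, 1, 3, 6 and 10 h from 2 cultures per group, which gave 10 groups and 20 Affymetrix arrays. The labels state that treated and untreated cells are equivalent at 0 h. All results rest on this 1 tumour line.

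Levels are log2 RMA values, and a difference of 1 on this scale is a 2-fold change. A difference is treated minus untreated at the same hour, or a later hour minus 0 h in the same arm. It counts as a call when limma's p, adjusted over all 18193 genes, is under 0.05. Medians of the 20 arrays lay between 5.15 and 5.21, and the correlation between duplicates ran from 0.9958 to 0.9971. The median standard error (SE) of a treated minus untreated difference was 0.126. At 0 h no gene of the 18193 was called by limma, and 740 had an unadjusted p under 0.05. Smad7 and Skil, feedback inhibitors that TGFβ switches on, were called higher in treated cells, with log2 differences of 2.45 and 2.27 at 1 h. Of the hepatocyte lineage genes, Alb and Afp had mean log2 levels of 12.01 and 12.78, while Ttr, Apoa1, Apoa2 and Hnf4a had mean levels between 5.65 and 6.57, near the array medians, where no background level is known. Alb and Afp were called lower in treated cells at 6 h (log2 differences -0.39 and -0.46) and at 10 h (-0.49 and -0.53). Afp was also called lower at 1 h (-0.19) and 3 h (-0.25), and Apoa1 was called higher at 3 h (0.48). Of 11 markers of other liver cell types, 2 were called higher in treated cells at 3, 6 and 10 h, namely Col1a1 and Epcam. The summed linear level of those 11 markers ran from 1435 to 1930 in treated cells and from 1308 to 1614 in untreated cells over these hours. Without Epcam the ranges were 359 to 478 in treated cells and 400 to 463 in untreated cells. RMA gave none of these markers a value of 0. Mean log2 levels were 3.31 for Ptprc (leukocytes), and 5.46 and 5.23 for Adgre1 and Cd68 (macrophages). For the endothelial genes Pecam1, Kdr and Stab2 they were 3.65, 5.36 and 4.40. Col1a1, Col3a1 and Des (stellate cells and fibroblasts) had 4.83, 3.50 and 6.65, and Krt19 and Epcam (bile duct) had 6.78 and 9.94. The part of the hepatocyte lineage genes and of these markers in the results was not tested.

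Cholesterol is built from acetyl-CoA through mevalonate, isoprenoid pyrophosphates and squalene, and the ring of lanosterol is then trimmed to cholesterol. When sterols in the endoplasmic reticulum are scarce, SCAP carries SREBP2 to the Golgi, where it is cut into an active transcription factor that raises the genes of synthesis and uptake. INSIG proteins hold SCAP back when sterols are plentiful, and the receptor LXR, which senses oxidised sterols, raises the exporters ABCA1 and ABCG1. The liver is a main site of this synthesis and of cholesterol clearance.

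The synthesis enzymes rose with time in both arms, and most rose less in the cells given TGFβ1. That difference in the rise was called for 10 of the 17 at 3 h, 12 at 6 h and 3 at 10 h. The share of all genes called for it is not given here. Of the 17 enzymes, 14 were lower in treated than in untreated cells at 3 h, 15 at 6 h and 8 at 10 h, and 0 were higher at any hour. Of all genes, 8.55%, 7.96% and 4.06% were called lower at 3, 6 and 10 h. The median enzyme was 1.22-fold lower at 3 h, 1.36-fold lower at 6 h and 1.15-fold lower at 10 h. Among the other genes, the uptake regulator Mylip and the exporter Abcg1 were higher in treated cells, and the sterol carrier Stard4 was lower. Whole cultures were measured, so fewer cells expressing a gene and less RNA per cell cannot be told apart.

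Over all 29 genes, 2 were called higher and 0 lower at 1 h, when 1.91% of all genes were called higher and 0.324% lower. At 3 h 3 were higher and 16 lower (55.2%), beside 6.73% of all genes higher and 8.55% lower. At 6 h 3 were higher and 18 lower (62.1%), beside 7.77% higher and 7.96% lower among all genes. At 10 h 1 was higher and 9 were lower (31%), beside 5.07% higher and 4.06% lower among all genes. The share called lower was above that of all genes at 3, 6 and 10 h. Because the list was chosen with earlier results of these data known, this comparison is not an independent test. The median difference of the 29 genes was -0.03 at 1 h, -0.25 at 3 h, -0.28 at 6 h and -0.13 at 10 h. Over all genes the median was -0.01, -0.02, -0.03 and -0.00 at these hours. For the mean difference over 1, 3, 6 and 10 h, 2 of the 29 were higher and 18 lower, beside 10.9% and 11.6% of all genes. No call at 3 or 6 h changed direction under any alternative. When the small difference at 0 h was subtracted, 6 of the 19 calls at 3 h, 6 of the 21 at 6 h and 6 of the 10 at 10 h were lost. This contrast takes in 4 more arrays and has a larger SE, for Msmo1 0.13 in place of 0.09, so a call can be lost at an unmoved difference. Fdps at 10 h, for example, lost its call at a log2 difference of -0.27, against -0.20 without the subtraction. Most lost calls did shrink, such as Insig1 at 3 h (-0.48 to -0.30) and Hmgcs1 at 3 h (-0.25 to -0.12). Mvk, Srebf1 and Mvd at 3 h, Insig1, Mvd, Mylip and Npc1 at 6 h, and Idi1, Lss, Dhcr7 and Abcg1 at 10 h also shrank. Tm7sf2 at 3 h, Nsdhl and Sc5d at 6 h, and Fdps and Msmo1 at 10 h did not.

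**Figure D1:**
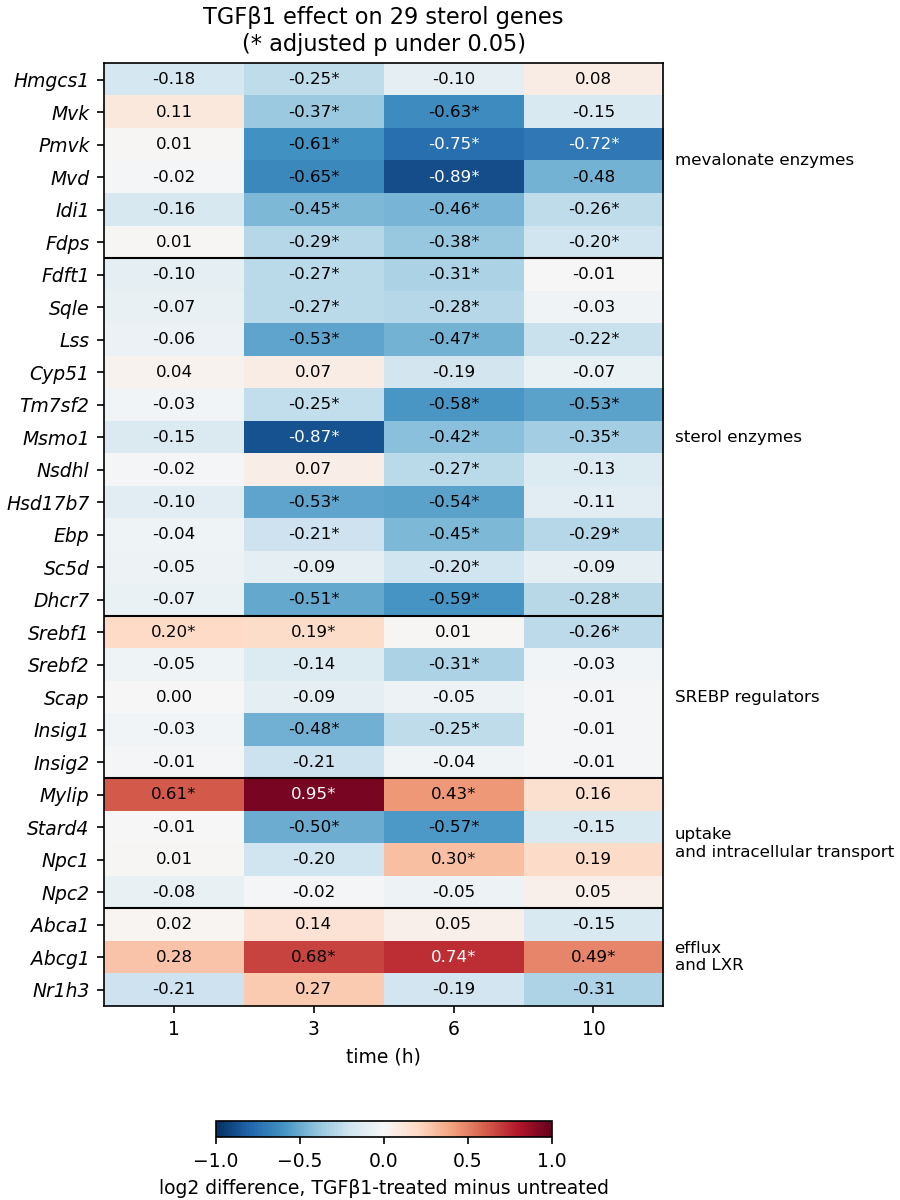
Log2 difference, treated minus untreated, for the 29 genes (rows, by role) at 1, 3, 6 and 10 h (columns). Colour runs from blue (lower in treated cells) to red (higher), the printed number is the difference, and an asterisk marks a call by limma. The enzyme rows are mostly blue at 3 and 6 h, and Mylip and Abcg1 are red.

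Promoter windows were searched for motifs of SREBP, of factors known to work beside it and of SMAD proteins, which carry the TGFβ signal, and 4 windows are shown because their genes mark the range of the response. Msmo1 had the largest difference among the 17 enzymes at 3 h and Mvd at 6 h, Cyp51 was the 1 enzyme not called between the arms at any hour, and the Hmgcs1 window held the single match to a sterol regulatory element core. Apart from Hmgcs1, these genes were picked after their values were seen. Each window runs 5′ to 3′ from 250 bases before to 50 bases after the start that RefSeq gives on build GRCm38.p6. The coordinates are chr13:119690101-119690400 (plus strand) for Hmgcs1 and chr8:64733529-64733828 (minus strand) for Msmo1. They are chr8:122443373-122443672 (minus strand) for Mvd and chr5:4104648-4104947 (minus strand) for Cyp51. Capitals mark the NF-Y box, CCAAT or its other strand ATTGG, and in Hmgcs1 also the element core, TCACCCCAC.
Hmgcs1: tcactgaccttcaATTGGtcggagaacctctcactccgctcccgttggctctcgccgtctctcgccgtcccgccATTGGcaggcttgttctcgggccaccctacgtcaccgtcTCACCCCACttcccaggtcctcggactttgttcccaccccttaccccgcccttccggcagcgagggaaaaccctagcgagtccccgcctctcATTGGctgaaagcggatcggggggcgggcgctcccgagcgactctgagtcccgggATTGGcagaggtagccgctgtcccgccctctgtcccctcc
Msmo1: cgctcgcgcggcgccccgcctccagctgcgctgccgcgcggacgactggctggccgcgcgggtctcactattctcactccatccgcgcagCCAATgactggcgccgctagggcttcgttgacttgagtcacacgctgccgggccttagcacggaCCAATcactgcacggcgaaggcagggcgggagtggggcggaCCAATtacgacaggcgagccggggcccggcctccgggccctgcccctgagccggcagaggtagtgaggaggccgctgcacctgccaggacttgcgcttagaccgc
Mvd: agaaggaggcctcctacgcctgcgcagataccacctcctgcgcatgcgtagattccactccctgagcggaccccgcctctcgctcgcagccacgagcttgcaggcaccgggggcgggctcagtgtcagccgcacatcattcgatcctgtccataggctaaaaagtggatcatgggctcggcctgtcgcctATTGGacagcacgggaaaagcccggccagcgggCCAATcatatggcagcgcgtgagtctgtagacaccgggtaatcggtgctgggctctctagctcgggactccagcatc
Cyp51: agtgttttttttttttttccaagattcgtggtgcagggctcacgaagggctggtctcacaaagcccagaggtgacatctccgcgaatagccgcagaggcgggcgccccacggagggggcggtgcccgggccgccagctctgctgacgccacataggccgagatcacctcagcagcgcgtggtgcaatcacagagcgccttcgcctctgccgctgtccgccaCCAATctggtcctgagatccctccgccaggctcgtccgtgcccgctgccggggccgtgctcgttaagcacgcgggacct
These windows hold 4, 3, 2 and 1 NF-Y boxes in the order printed, and the capitals overlap nowhere.

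A RefSeq window was found for 23 of the 29 genes, of which 6 had several windows. The motif searches covered both strands. The NF-Y box stood in 14 of the 14 enzymes with a window and in 20 of the 23 genes, against 42% of the 14452 measured genes with a window and 37.4% of the 32851 windows. The 3 without it were Scap, Abca1 and Nr1h3. The element core TCACNCCAC (other strand GTGGNGTGA) stood in 1 of 23, against 1.46% of measured genes and 1.24% of windows. Only this string was searched, so an element spelled otherwise would be missed. The Sp1 box GGGCGG (other strand CCGCCC) stood in 21 of 23, against 57.3% of measured genes and 35.7% of windows. The E-box CACGTG, the same on both strands, stood in 6 of 23, against 10.2% of measured genes and 7.15% of windows. The SMAD element CAGACA (other strand TGTCTG) stood in 4 of 23, or 17.4%, against 20.5% of measured genes and 21% of windows. Genes with several windows have more sequence to match. A match is a run of letters and no measured binding. Cyp51, whose difference was not called, is among the 14 enzymes with an NF-Y box. Whether the box goes with the response was not tested.

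**Figure D2:**
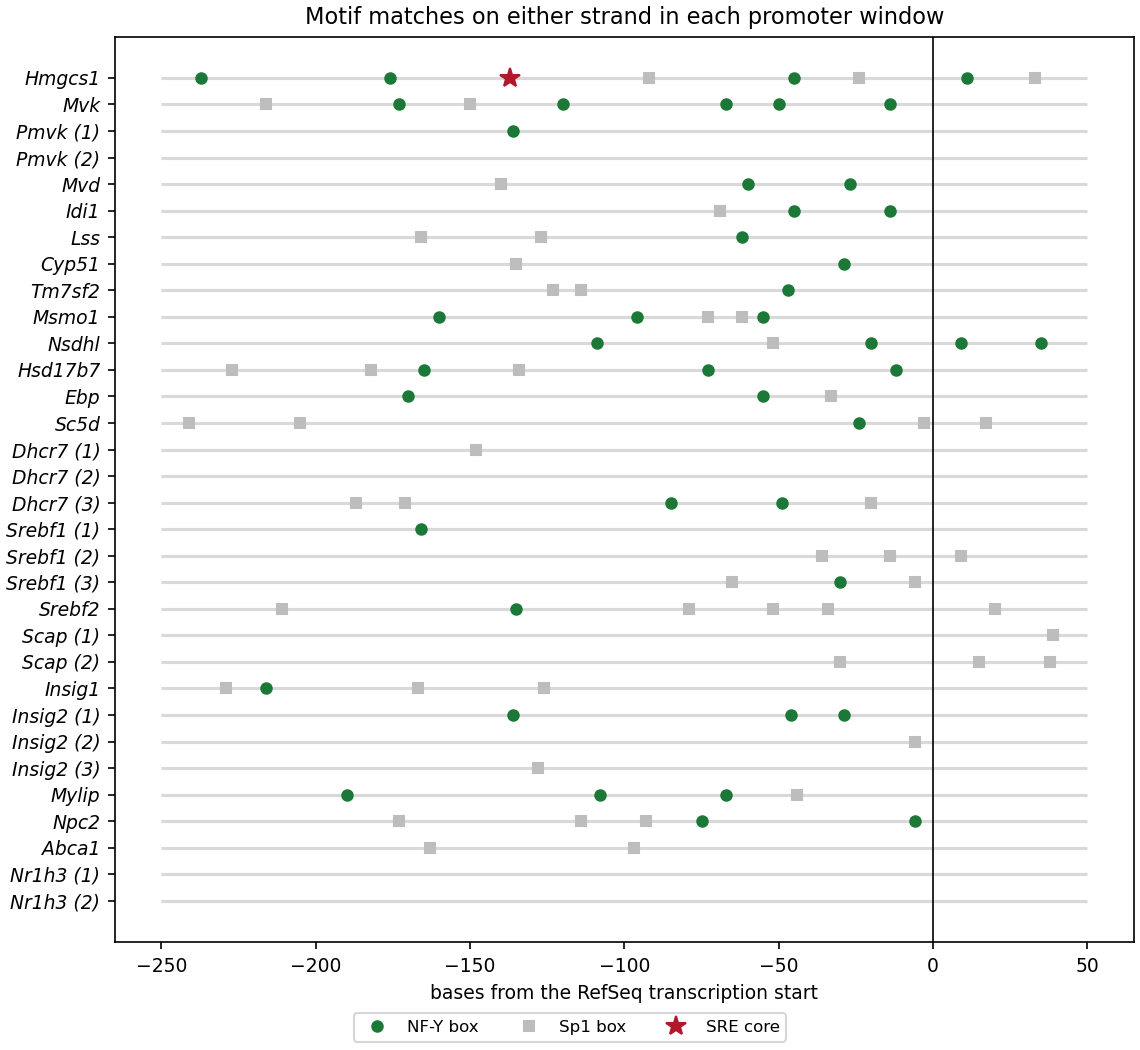
Matches to the NF-Y box (green circles), the Sp1 box (grey squares) and the sterol regulatory element core (red star) in every RefSeq promoter window of the 23 genes, with the distance in bases from the transcription start on the horizontal axis. Genes with several windows have a numbered row for each. Green circles appear in at least 1 window of 20 genes, and the star appears for Hmgcs1 alone.

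In the mevalonate steps, all 6 enzymes were lower in treated cells at 3 h, 5 at 6 h and 3 at 10 h. The shares of all genes called lower were 8.55%, 7.96% and 4.06%. Pmvk, phosphomevalonate kinase, was called lower at all 3 hours. Its log2 levels at 3 h were 9.08 and 8.98 in treated cells, against 9.52 and 9.76 in untreated cells. The 6 h levels were 9.43 and 9.48 in treated cells, against 10.18 and 10.23 in untreated cells. The 10 h levels were 9.49 and 9.45 in treated cells, against 10.10 and 10.27 in untreated cells. The arms did not overlap at any of these hours. Pmvk was 1.52-fold lower at 3 h (log2 difference -0.61, SE 0.07, adjusted p = 2.24e-06), 1.68-fold lower at 6 h (adjusted p = 1.33e-07) and 1.64-fold lower at 10 h (adjusted p = 6.88e-07). These calls held under every alternative tried.

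Mvd, the decarboxylase that makes isopentenyl pyrophosphate, had the lowest single difference of the 29 genes. At 3 h its levels were 7.99 and 7.43 in treated cells, against 8.21 and 8.50 in untreated cells. At 6 h they were 7.97 and 8.14 in treated cells, against 9.13 and 8.75 in untreated cells. The arms were apart at both hours, but the duplicates of Mvd spread widely, and its SE of 0.18 was the highest among the 17 enzymes. Mvd was 1.57-fold lower at 3 h (log2 difference -0.65, adjusted p = 0.0142) and 1.85-fold lower at 6 h (-0.89, adjusted p = 0.00108). At 10 h the log2 difference was -0.48 (adjusted p = 0.114). The call at 3 h was lost without untreated replicate 2 (adjusted p = 0.17), without treated replicate 2 (0.287), with robust variances (0.0551) and without the variance trend (0.063). With the 0 h difference subtracted, the log2 difference of Mvd was -0.54 at 3 h (adjusted p = 0.242) and -0.78 at 6 h (0.0542). A second Mvd probe set showed log2 differences of -0.36 at 3 h and -0.73 at 6 h.

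Idi1, the isomerase that makes dimethylallyl pyrophosphate, had levels of 10.76 and 10.70 in treated cells at 3 h, against 11.13 and 11.24 in untreated cells. By 6 h they were 11.06 and 10.95 in treated cells, against 11.50 and 11.44 in untreated cells. Both hours showed separate arms, with Idi1 lower by 1.37-fold at 3 h (adjusted p = 2.86e-06) and by 1.38-fold at 6 h (adjusted p = 2.26e-06). At 10 h it was 1.19-fold lower (adjusted p = 0.00373), a call lost without untreated replicate 2 (0.0818), without treated replicate 1 (0.0551) or with the 0 h difference subtracted (-0.22, adjusted p = 0.153). A second Idi1 probe set, with a mean level of 9.67, had log2 differences of -0.69 at 3 h (adjusted p = 0.00027 over all probe sets) and -0.19 at 6 h (0.397).

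The other mevalonate enzymes moved less or more briefly. Mvk, mevalonate kinase, was 1.29-fold lower at 3 h and 1.54-fold lower at 6 h, with a log2 difference of -0.15 at 10 h that was not called. Fdps, which joins the isoprenoid units into farnesyl pyrophosphate, was lower at all 3 of these hours, with log2 differences of -0.29, -0.38 and -0.20. Hmgcs1, which makes HMG-CoA at the entry to the pathway, was called lower at 3 h (log2 difference -0.25, adjusted p = 0.00427), and its differences were -0.10 at 6 h and 0.08 at 10 h. Its 3 h call was lost without untreated replicate 1 (adjusted p = 0.116) and with the 0 h difference of -0.13 subtracted (log2 difference -0.12, adjusted p = 0.492). Of the other Hmgcs1 probe sets, 1 with a mean level of 11.38 was also called lower at 6 h (-0.19, adjusted p = 0.0233 over all probe sets). Subtracting the 0 h difference took Mvk at 3 h to a log2 difference of -0.23 (adjusted p = 0.319), and a second Mvk probe set had -0.25 at 3 h (0.0912 over all probe sets) and -0.33 at 6 h (0.0216). Fdps lost its 3 h call without treated replicate 2 (0.0816), and its 10 h call without untreated replicate 1 (0.453), treated replicate 1 (0.158) or treated replicate 2 (0.224). The mean of its probe sets, of which the second had a mean level of only 2.20, gave Fdps adjusted p-values of 0.371 at 3 h and 0.0629 at 6 h.

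In the sterol steps, 8 of the 11 enzymes were lower in treated cells at 3 h, 10 at 6 h and 5 at 10 h. Among all genes, 8.55%, 7.96% and 4.06% were called lower. Msmo1, the methylsterol monooxygenase that removes methyl groups from lanosterol's descendants, had levels of 10.94 and 10.83 in treated cells at 3 h, against 11.82 and 11.69 in untreated cells. The 6 h levels were 11.48 and 11.54 in treated cells, against 11.92 and 11.94 in untreated cells. The 10 h levels were 11.59 and 11.38 in treated cells, against 11.78 and 11.88 in untreated cells. The arms did not overlap at any of the 3 hours, and they were farthest apart at 3 h. Msmo1 was 1.82-fold lower at 3 h (log2 difference -0.87, SE 0.09, adjusted p = 4.73e-07), 1.34-fold lower at 6 h (adjusted p = 0.00269) and 1.27-fold lower at 10 h (adjusted p = 0.0197). The 10 h call was lost without untreated replicate 1 (0.052), untreated replicate 2 (0.181) or treated replicate 2 (0.259). With the 0 h difference subtracted, the 10 h log2 difference of Msmo1 was -0.35, as before, and its adjusted p was 0.181. Taking the mean of the probe sets of Msmo1 gave an adjusted p of 0.745 at 10 h.

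Dhcr7 catalyses the last reduction of the route through 7-dehydrocholesterol. Its levels at 3 h were 9.39 and 9.39 in treated cells, against 9.86 and 9.95 in untreated cells. At 6 h they were 9.82 and 9.82 in treated cells, against 10.34 and 10.48 in untreated cells. The arms were separate, and Dhcr7 was 1.43-fold lower at 3 h (adjusted p = 7.84e-06) and 1.51-fold lower at 6 h (adjusted p = 1.33e-06). At 10 h Dhcr7 was 1.21-fold lower (adjusted p = 0.00935), a call lost without untreated replicate 2 (0.229) or treated replicate 1 (0.101) and with the 0 h difference subtracted (log2 difference -0.22, adjusted p = 0.289).

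Tm7sf2, a sterol reductase of the steps after lanosterol, was called lower at 3, 6 and 10 h. Its levels at 3 h were 7.65 and 7.64 in treated cells, against 7.82 and 7.96 in untreated cells. By 6 h they were 8.11 and 8.21 in treated cells, against 8.73 and 8.75 in untreated cells. The 10 h levels were 8.38 and 8.47 in treated cells, against 8.91 and 9.00 in untreated cells. The arms did not overlap at these hours, and Tm7sf2 was lower by 1.19-fold at 3 h (adjusted p = 0.0331), 1.49-fold at 6 h (adjusted p = 1.09e-05) and 1.45-fold at 10 h (adjusted p = 8.08e-05). The change of the difference between hours was not called for Tm7sf2. Its 3 h call was lost without untreated replicate 2 (0.287), treated replicate 1 (0.115) or treated replicate 2 (0.132). With the 0 h difference subtracted, the 3 h log2 difference of Tm7sf2 was -0.27, against -0.25 before, at an adjusted p of 0.15.

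Of the remaining sterol enzymes, Lss, the cyclase that makes lanosterol, was 1.44-fold lower at 3 h, 1.39-fold lower at 6 h and 1.17-fold lower at 10 h. Hsd17b7, a ketosteroid reductase, was 1.44-fold lower at 3 h and 1.45-fold lower at 6 h and was not called at 10 h. Ebp, the sterol isomerase, was called lower at all 3 hours with log2 differences of -0.21, -0.45 and -0.29. Fdft1 and Sqle, which make squalene and its epoxide, were lower at 3 h by 0.27 each on the log2 scale and at 6 h by 0.31 and 0.28. At 10 h their log2 differences were -0.01 and -0.03. With the mean of its probe sets, Fdft1 had a 6 h log2 difference of -0.17 that was not called (adjusted p = 0.072). Another Fdft1 probe set, with a mean level of 9.63, was called lower at 6 h (-0.29, adjusted p = 0.0231 over all probe sets). Those with mean levels of 5.65 and 5.52 had log2 differences of -0.07 and -0.001 at 6 h. Nsdhl and Sc5d, which act on the sterol ring late in the route, were called lower at 6 h only, with log2 differences of -0.27 and -0.20. Cyp51, lanosterol demethylase, had log2 differences of 0.07 at 3 h, -0.19 at 6 h (adjusted p = 0.0786) and -0.07 at 10 h.

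Several of these calls rested on single arrays. Without untreated replicate 2 or treated replicate 2, the 3 h call of Ebp went to adjusted p-values of 0.0587 and 0.127. Without treated replicate 2, that of Fdft1 went to 0.0561. Leaving out any 1 of the 4 arrays at 10 h ended the call of Lss (adjusted p between 0.0606 and 0.294). At 6 h the same held for Nsdhl (between 0.0594 and 0.24). Sc5d lost its 6 h call without untreated replicate 1 (0.114), untreated replicate 2 (0.0727) or treated replicate 2 (0.176).

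**Figure D3:**
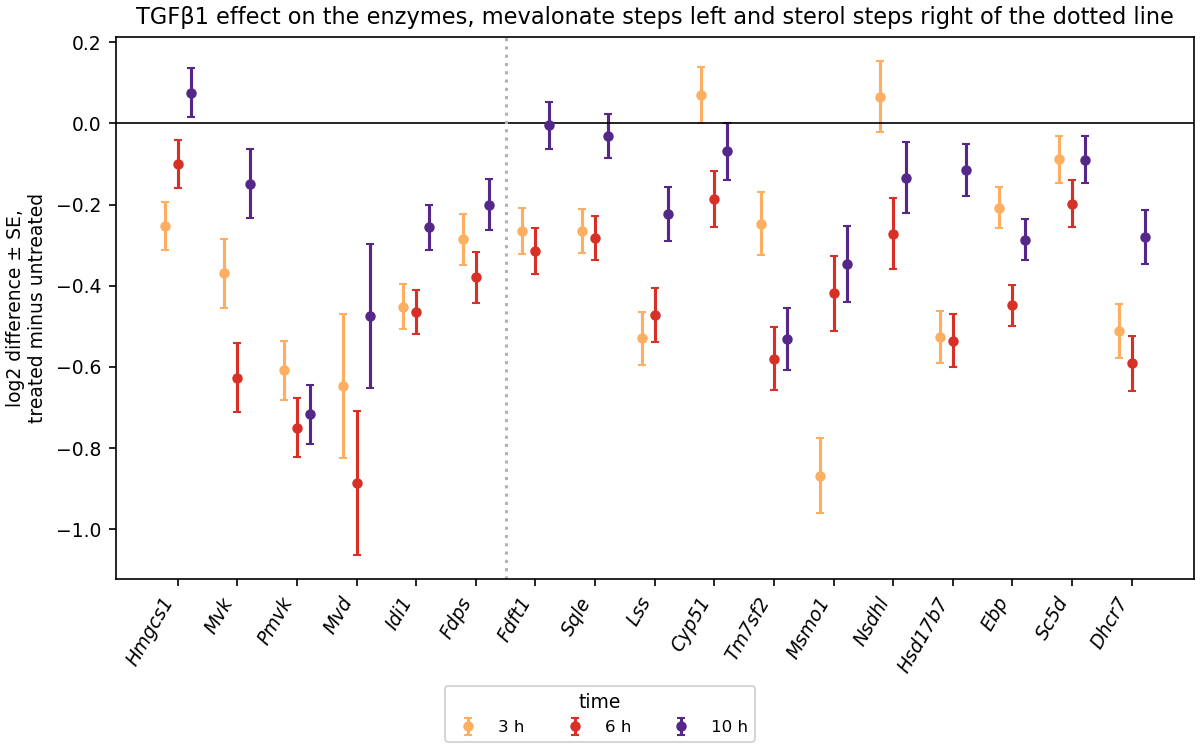
Log2 difference, treated minus untreated, with its standard error from limma (bars) for the 17 synthesis enzymes, ordered along the pathway from left to right, at 3 h (orange), 6 h (red) and 10 h (purple). The lowest points are Mvd at 6 h (-0.89) and Msmo1 at 3 h (-0.87). Hmgcs1, Cyp51 and Nsdhl have a point above 0.

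The enzymes' climb over time frames these differences. In treated cells, 15 of the 17 enzymes were called higher at 3 h than at 0 h, and all 17 at 6 and 10 h, with median rises of 1.53-fold, 1.87-fold and 2.04-fold. In untreated cells, all 17 were called higher at 3, 6 and 10 h, with median rises of 1.8-fold, 2.54-fold and 2.33-fold. The shares of all genes called higher at these hours were 7.55%, 11.2% and 14.5% in treated cells. In untreated cells these shares were 4.95%, 10.4% and 13.3%. At 1 h 5 enzymes were called higher in treated cells and 7 in untreated cells, beside 2.45% and 0.104% of all genes. In untreated cells, 16 of the 17 enzymes had a mean at 10 h below that at 6 h. This fall was not tested, and it was small for some, such as Pmvk (10.20 at 6 h and 10.18 at 10 h). The mean level of the 17 enzymes on the 2 arrays of each group was 9.83 and 9.71 in treated cells at 3 h, against 10.09 and 10.15 in untreated cells. At 6 h it was 10.10 and 10.10 in treated cells, against 10.56 and 10.51 in untreated cells, and at 10 h 10.12 and 10.14 in treated cells, against 10.33 and 10.38 in untreated cells. At 0 h the arms overlapped, with 9.22 and 9.15 in treated cells and 9.23 and 9.16 in untreated cells. The rise was smaller in treated cells for 15 of the 17 enzymes at 3 h, 16 at 6 h and 16 at 10 h. The difference between the rises was itself called for 10, 12 and 3 of them. The share of all genes called for it is not given here, so these counts stand without a background. Rises and treated minus untreated differences share arrays, so they are not separate evidence.

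Mvd rose most among the enzymes. At 6 h it was 2.77-fold above 0 h in treated cells and 4.76-fold in untreated cells. Pmvk was 1.70-fold above 0 h in treated cells at 6 h and 2.81-fold in untreated cells. Msmo1 at 3 h was 1.34-fold above 0 h in treated cells and 2.45-fold in untreated cells, and by 6 h it stood at 2.07-fold in treated cells and 2.78-fold in untreated cells. The difference in the rise was called for Pmvk at 6 h (-0.72 on the log2 scale, adjusted p = 5.22e-05) and for Msmo1 at 3 h (-0.87, adjusted p = 8.98e-05). The enzymes with the smallest rise by 6 h in treated cells were Ebp (1.14-fold in treated cells, 1.62-fold in untreated cells) and Mvk (1.18-fold in treated cells, 1.66-fold in untreated cells). The 6 h rise of Ebp in treated cells was not called without treated 0 h replicate 2 (adjusted p = 0.0579) or treated 6 h replicate 1 (0.0574). That of Mvk, called at 0.0472, was lost without any 1 of its 4 arrays (between 0.104 and 0.209).

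Counted over all 29 genes against 0 h, treated cells had 7 higher and 0 lower at 1 h, beside 2.45% higher and 1.06% lower among all genes. Treated cells had 17 higher and 1 lower at 3 h (7.55% and 8.28% of all genes), 24 and 1 at 6 h (11.2% and 12.8%), and 25 and 2 at 10 h (14.5% and 13.6%). Untreated cells had 7 higher and 0 lower at 1 h, beside 0.104% and 0.0824% of all genes. Untreated cells had 21 higher and 2 lower at 3 h (4.95% and 3.21% of all genes), 23 and 2 at 6 h (10.4% and 10.3%), and 23 and 2 at 10 h (13.3% and 12.8%). The share called higher was far above that of all genes in both arms. The list was chosen with earlier results of these data known, so this is not an independent test either. The 1 h counts were the least stable, and between 1 and 3 of the 29 stayed higher in untreated cells when 1 array was left out.

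**Figure D4:**
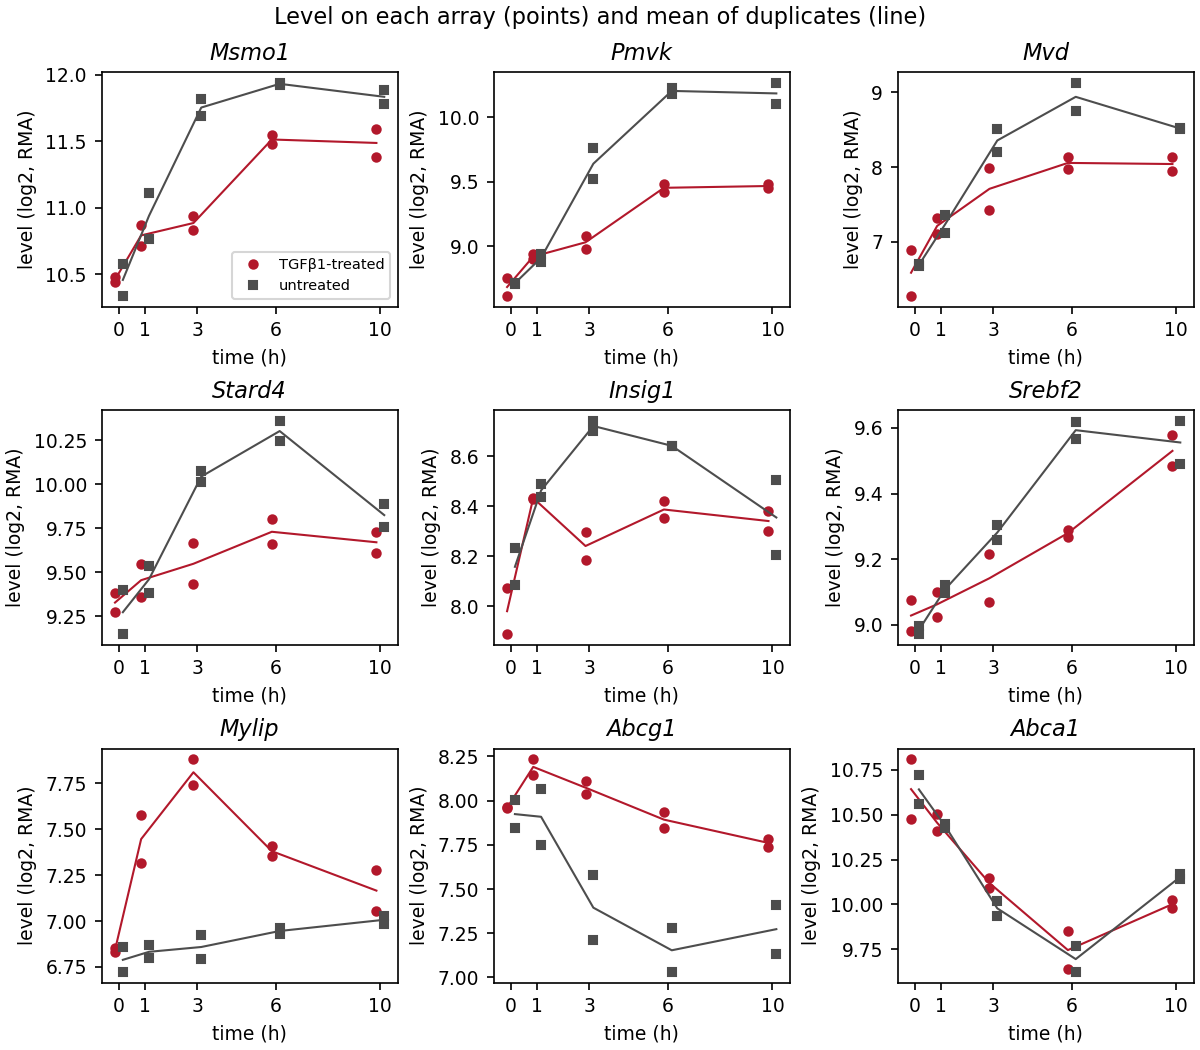
Log2 RMA level of 9 genes on each array (points) and the mean of the duplicates (lines) against time in hours, in treated (red circles) and untreated (grey squares) cells, which are set slightly apart at each hour. Msmo1, Pmvk and Mvd climb in both arms up to 6 h, and their untreated means are lower at 10 h than at 6 h. Treated cells lie below from 3 h on for these 3 genes, Mylip peaks at 3 h in treated cells, and Abcg1 declines in untreated cells.

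**Figure D5:**
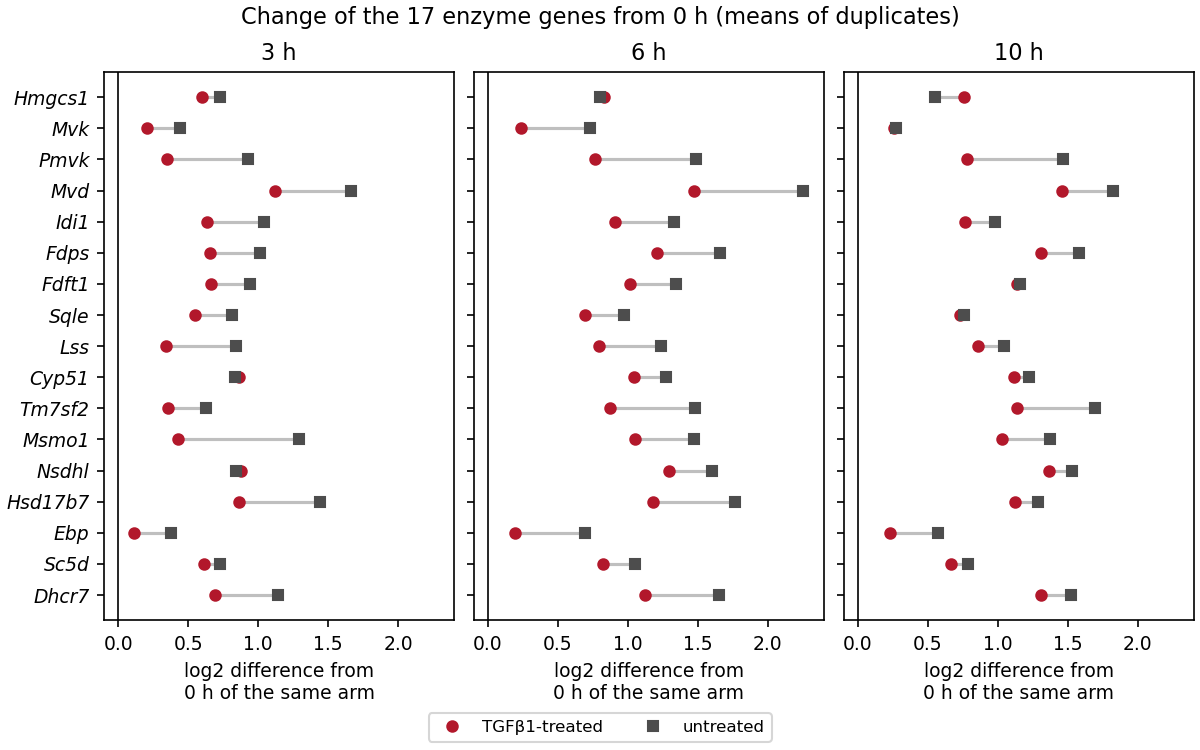
Log2 difference from 0 h of the same arm (horizontal axis, means of duplicates) for the 17 enzymes at 3, 6 and 10 h (panels) in treated (red circles) and untreated (grey squares) cells. The treated point lies left of the untreated one for 15 enzymes at 3 h and 16 at 6 and 10 h, and all points lie right of 0.

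Of the 5 regulators of SREBP, 1 was higher and 1 lower at 3 h, beside 6.73% and 8.55% of all genes. At 6 h 2 were lower, beside 7.96% of all genes, and at 10 h 1 was lower, beside 4.06%. With 5 genes, 1 call is already 20%, so these counts say little about the regulators as a group. Insig1, whose protein anchors SCAP when sterols bind and which is itself an SREBP target, had levels of 8.18 and 8.30 in treated cells at 3 h, against 8.70 and 8.74 in untreated cells. The 6 h levels were 8.42 and 8.35 in treated cells, against 8.64 and 8.64 in untreated cells. The arms were apart at both hours and overlapped at 10 h, with 8.38 and 8.30 in treated cells and 8.21 and 8.50 in untreated cells. Insig1 was 1.40-fold lower at 3 h (log2 difference -0.48, adjusted p = 0.00031) and 1.19-fold lower at 6 h (adjusted p = 0.0472). At 0 h the log2 difference of Insig1 was already -0.18, and subtracting it left -0.30 at 3 h and -0.08 at 6 h, with adjusted p-values of 0.153 and 0.805. The 6 h call was lost without any 1 of the 4 arrays (between 0.0991 and 0.227).

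Srebf2, the gene of the main SREBP of cholesterol synthesis, was lower at 6 h. Its levels at 6 h were 9.29 and 9.27 in treated cells, against 9.62 and 9.57 in untreated cells. The arms did not overlap, and Srebf2 was 1.24-fold lower (log2 difference -0.31, SE 0.06, adjusted p = 0.000976). At 3 h its log2 difference was -0.14 (adjusted p = 0.161) and at 10 h -0.03. A second Srebf2 probe set had -0.22 at 6 h (adjusted p = 0.15 over all probe sets).

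Srebf1, which also encodes the SREBP that serves fatty acid synthesis, was called in both directions. At 1 h its levels were 10.94 and 10.96 in treated cells, against 10.76 and 10.74 in untreated cells. At 3 h they were 10.99 and 10.92 in treated cells, against 10.79 and 10.75 in untreated cells. The 10 h levels were 10.59 and 10.56 in treated cells, against 10.82 and 10.86 in untreated cells. Treated arrays lay above untreated ones at 1 and 3 h and below them at 10 h. Srebf1 was 1.15-fold higher at 1 h (adjusted p = 0.0185), 1.14-fold higher at 3 h (adjusted p = 0.00699) and 1.20-fold lower at 10 h (adjusted p = 0.000593). The difference at 10 h minus that at 3 h was -0.45 on the log2 scale (SE 0.07, adjusted p = 8.47e-05), and this call held without any 1 array. With the 0 h difference of 0.10 subtracted, Srebf1 had log2 differences of 0.10 at 1 h (adjusted p = 0.842), 0.08 at 3 h (0.588) and -0.37 at 10 h (0.00164). The 1 h call was lost without any 1 of its 4 arrays (between 0.0795 and 0.159), and the 3 h call without untreated replicate 2 (0.0785) or treated replicate 1 (0.0982).

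The probe set used for Insig2, the second SCAP anchor, was not called at any hour between the arms. Its levels at 3 h were 9.04 and 8.77 in treated cells, against 9.16 and 9.07 in untreated cells, a log2 difference of -0.21 (adjusted p = 0.0707). Another probe set of Insig2, with a mean level of 8.62, was called lower at 3 h (-0.35, adjusted p = 0.0042 over all probe sets), and the third was not (-0.28, adjusted p = 0.147). The probe set used for Insig2 rose with time in both arms, and at 10 h it stood 1.59-fold above 0 h in treated cells and 1.59-fold in untreated cells. Scap, the sterol-sensing escort, had log2 differences between -0.09 and 0.00 from 1 to 10 h and was not called.

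Among the genes of uptake and transport, Mylip was higher and Stard4 lower in treated than in untreated cells. Mylip, also known as Idol, encodes an LXR-induced ubiquitin ligase that sends lipoprotein receptors to degradation. Its levels at 1 h were 7.58 and 7.32 in treated cells, against 6.80 and 6.87 in untreated cells. At 3 h they were 7.88 and 7.74 in treated cells, against 6.92 and 6.79 in untreated cells. At 6 h they were 7.35 and 7.41 in treated cells, against 6.93 and 6.96 in untreated cells. The arms were separate at all 3 hours, and Mylip was 1.53-fold higher at 1 h (adjusted p = 0.000533), 1.93-fold higher at 3 h (log2 difference 0.95, SE 0.10, adjusted p = 4.35e-07) and 1.35-fold higher at 6 h (adjusted p = 0.00401). At 10 h the levels were 7.28 and 7.05 in treated cells, against 6.98 and 7.03 in untreated cells, a log2 difference of 0.16 that was not called. The difference was smaller at 10 h than at 3 h by 0.79 on the log2 scale (SE 0.14, adjusted p = 0.000903).

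Mylip in untreated cells was not called against 0 h at any hour, with log2 changes of 0.04, 0.07, 0.16 and 0.22 at 1, 3, 6 and 10 h. In treated cells these changes were 0.60, 0.97, 0.54 and 0.32, each called by limma. The 3 h difference stayed called with the 0 h difference subtracted (0.90, adjusted p = 0.000169), while those at 1 h (0.56, adjusted p = 0.0632) and 6 h (0.38, adjusted p = 0.11) did not. The 10 h rise in treated cells was lost without either 0 h replicate (adjusted p = 0.0862 and 0.0636) or 10 h replicate 1 (0.259).

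Stard4, an SREBP target whose protein carries cholesterol between membranes, had levels of 9.66 and 9.43 in treated cells at 3 h, against 10.01 and 10.07 in untreated cells. By 6 h they were 9.80 and 9.66 in treated cells, against 10.36 and 10.25 in untreated cells. The arms did not overlap, and Stard4 was 1.41-fold lower at 3 h (log2 difference -0.50, adjusted p = 0.000428) and 1.49-fold lower at 6 h (-0.57, adjusted p = 9.23e-05). In treated cells at 6 h it stood 1.32-fold above 0 h, and in untreated cells 2.04-fold. At 10 h its log2 difference was -0.15 (adjusted p = 0.394), while a second Stard4 probe set had -0.23 (0.0447 over all probe sets).

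Npc1 and Npc2 encode the pair of proteins that hand cholesterol out of the lysosome. Npc1 levels at 6 h were 8.04 and 8.16 in treated cells, against 7.90 and 7.70 in untreated cells. The arms were apart by less than the gap between the untreated duplicates, and Npc1 was 1.23-fold higher (log2 difference 0.30, adjusted p = 0.0229). That call was lost without untreated replicate 2 (adjusted p = 0.28), without treated replicate 2 (0.201), in a fit of the compared arrays alone (0.0651) and with the 0 h difference subtracted (log2 difference 0.28, adjusted p = 0.195). At 3 h the log2 difference of Npc1 was -0.20 and was not called. Npc2 had differences between -0.08 and 0.05 from 1 to 10 h, not called, and by 10 h stood 1.58-fold above 0 h in treated cells and 1.54-fold in untreated cells.

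Of the 3 efflux genes, Abcg1 was higher in treated cells at 3, 6 and 10 h, and Abca1 and Nr1h3 were called at no hour. Among all genes, 6.73%, 7.77% and 5.07% were called higher at these hours. Abcg1 passes cholesterol to high-density lipoprotein. Its levels at 3 h were 8.11 and 8.04 in treated cells, against 7.21 and 7.58 in untreated cells. The 6 h levels were 7.85 and 7.94 in treated cells, against 7.28 and 7.03 in untreated cells. The 10 h levels were 7.79 and 7.74 in treated cells, against 7.13 and 7.41 in untreated cells. All treated arrays lay above the untreated ones, whose duplicates differed more. Abcg1 was 1.60-fold higher at 3 h (log2 difference 0.68, SE 0.12, adjusted p = 0.000313), 1.67-fold higher at 6 h (0.74, adjusted p = 0.000129) and 1.40-fold higher at 10 h (0.49, adjusted p = 0.0117).

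Against 0 h, Abcg1 was called lower in untreated cells and not in treated cells. In treated cells its log2 changes from 0 h were 0.11 at 3 h, -0.07 at 6 h and -0.20 at 10 h, none called. In untreated cells they were -0.53, -0.77 and -0.65, all called. The difference between these changes was 0.64 at 3 h (adjusted p = 0.0191), 0.70 at 6 h (adjusted p = 0.00965) and by 10 h 0.45 (adjusted p = 0.185). The untreated fall at 3 h was lost without untreated 0 h replicate 2 (0.113) or untreated 3 h replicate 1 (0.166). The 10 h difference was lost without untreated replicate 1 (0.212), treated replicate 1 (0.102) or treated replicate 2 (0.0521). A second Abcg1 probe set, with a mean level of 4.46, had treated minus untreated differences of 0.04 at 3 h, 0.29 at 6 h and -0.17 at 10 h. With the mean of both probe sets, the adjusted p of Abcg1 was 0.0563 at 3 h and 0.575 at 10 h.

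Abca1, the exporter that loads apolipoprotein A-I, was called lower than at 0 h in both arms. Its log2 changes from 0 h at 3, 6 and 10 h were -0.52, -0.90 and -0.64 in treated cells and -0.66, -0.95 and -0.49 in untreated cells, all called. Between the arms its differences ran from -0.15 to 0.14 and were not called. Nr1h3, the gene of LXRα, had differences between -0.31 and 0.27, not called, with an SE of 0.17. Abcg1, Abca1 and Mylip are all known LXR targets, and in treated cells relative to untreated cells at 3 h Mylip and Abcg1 were called higher and Abca1 was not.

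The size of the treated minus untreated difference also changed between hours for some of the genes. From 1 to 3 h it became lower for 10 of the 29 genes and higher for 0, beside 3.94% and 2.47% of all genes. From 3 to 6 h 1 gene was lower and 1 higher (3.45% each), near the 1.69% and 2.86% of all genes. Each of these 2 calls was lost without at least 1 array. From 6 to 10 h 3 were higher (10.3%) and 1 lower (3.45%), beside 1.11% and 1.33%. From 3 to 10 h 4 were higher (13.8%) and 2 lower (6.9%), beside 4.11% and 2.96%. The enzymes with a called difference between 3 and 10 h were Hmgcs1, Msmo1 and Hsd17b7, whose 10 h difference lay closer to 0 or above it. Of these, Hmgcs1 and Msmo1 lost the call when 1 array was left out (adjusted p between 0.0627 and 0.123).

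A companion list held 47 further genes of the pathway, of which 42 were measured. It too was chosen with earlier results of these data known. Of these 42, 4 were higher and 10 lower at 3 h, 4 were higher and 8 lower at 6 h, and 4 were higher and 3 lower at 10 h. The shares called higher were 9.52% at each of these hours, beside 6.73%, 7.77% and 5.07% of all genes. The shares called lower were 23.8%, 19% and 7.14%, beside 8.55%, 7.96% and 4.06% of all genes. Over the mean of 1, 3, 6 and 10 h, 5 were higher (11.9%, beside 10.9% of all genes) and 10 lower (23.8%, beside 11.6%), so the share called higher was near that of all genes. The 5 higher were Lrp1, Vldlr, Cyb5r3, Paqr3 and Rxrb, with mean log2 differences of 0.47, 0.32, 0.23, 0.21 and 0.10. Lrp1 and Vldlr encode endocytic lipoprotein receptors, and Vldlr is a target of the ligase encoded by Mylip. Lrp1 averaged 9.31 in treated cells at 10 h and 8.59 in untreated cells (log2 difference 0.73, adjusted p = 9.74e-05). Vldlr averaged 9.04 in treated cells at 3 h and 8.40 in untreated cells (log2 difference 0.65, adjusted p = 3.37e-05). At 10 h Vldlr averaged 9.29 in treated cells and 9.42 in untreated cells (-0.13, not called), and its change from 3 to 10 h of -0.78 was called (adjusted p = 0.000582). Among the lower genes, Lbr, a second sterol reductase for the step of Tm7sf2, averaged 11.14 in treated cells at 3 h and 11.60 in untreated cells (log2 difference -0.46, adjusted p = 3.17e-06). Erlin1, part of a complex that degrades sterol-regulated membrane proteins, averaged 9.40 in treated cells at 6 h and 9.92 in untreated cells (log2 difference -0.52, adjusted p = 8.51e-07). Cyp7b1, an oxysterol hydroxylase, had a log2 difference of -0.41 at 6 h (adjusted p = 0.000308). Gramd1c and Nr1h4, the other genes among the 5 largest lower means, had mean log2 differences of -0.36 and -0.27 at mean levels of 4.06 and 5.66. Mbtps1 and Mbtps2, whose proteases cut SREBP, were not called for the mean over the hours, with log2 differences of -0.05 and 0.06. Between hours Mbtps2 differed in sign, with -0.12 at 3 h (not called) and 0.22 at 10 h (adjusted p = 0.0275).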

How the data were processed

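RNA of 20 Hepa1-6 cultures was measured on Affymetrix arrays, 1 array per culture and 2 cultures per group, biological duplicates per the labels' protocols. The authors deposited 1 log2 expression value per probe set and array, made with RMA per the submitters' processing notes. RMA corrects the background, sets the arrays to 1 common distribution and sums the probes of a set, so every difference is relative to the other transcripts. The RMA version, chip description file and genome build were not given in the sources used here. No detection calls were used.

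Of 45037 probe sets, the platform annotation named 1 gene for 34945, several for 932 and none for 9160, and only the first kind was used. Symbols were updated by gene ID against the RefSeq table of GRCm38.p6 (162 IDs were not in it). For each of the 18193 genes the 1 probe set with the highest mean over 20 arrays was kept. A model with 1 mean per group (10 residual degrees of freedom) was fitted with limma 3.58.1 in R 4.3.3, with a variance trend, and p-values were adjusted by Benjamini-Hochberg over all genes, with a threshold of 0.05. All tests were two-sided. The script was tested on simulated data. The number of arrays limits the precision.

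The members and lists were chosen with earlier results of these data known. Per-array values are given for the 3 genes per role with the largest mean difference among those called at 3, 6 or 10 h, for any gene called higher and for the SREBP and INSIG genes. Of the companion genes, at most 5 per direction were named. Alternatives were another baseline, other variance settings, array weights, further scaling, a level filter, other rules for probe sets, the compared arrays alone, the replicate number as a block and leaving out 1 array.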

Additional observations from a re-analysis of the deposited data

Results flagged for a closer look

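These results are listed because the treated minus untreated log2 difference of a gene changed between 2 hours by limma's test of the change itself. Changes that share an hour share its arrays. From 1 to 3 h the change was -0.48 for Mvk, -0.62 for Pmvk, -0.29 for Idi1, -0.30 for Fdps, -0.47 for Lss, -0.72 for Msmo1, -0.42 for Hsd17b7, -0.45 for Dhcr7, -0.45 for Insig1 and -0.49 for Stard4 (adjusted p between 0.000402 for Pmvk and 0.0488 for Fdps). From 3 to 6 h the change was -0.52 for Mylip and 0.50 for Npc1. From 6 to 10 h it was 0.48 for Mvk, 0.31 for Fdft1, 0.42 for Hsd17b7 and -0.28 for Srebf1. From 3 to 10 h it was 0.33 for Hmgcs1, 0.52 for Msmo1, 0.41 for Hsd17b7, -0.45 for Srebf1, 0.47 for Insig1 and -0.79 for Mylip.

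Of these 22 calls, 8 held whichever single array was left out: Pmvk, Lss, Msmo1, Hsd17b7 and Dhcr7 from 1 to 3 h, and Hsd17b7, Srebf1 and Mylip from 3 to 10 h. The other 14 were lost without at least 1 array, including both from 3 to 6 h and all 4 from 6 to 10 h. The causes of these changes were not tested.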

How the results depend on the processing

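Of 251 gene calls over the comparisons between arms and against 0 h, 182 held under every alternative and 0 changed direction. The counts of members lower at 3 h (11 to 17, against 16) and at 6 h (14 to 19, against 18) stayed within 1.5 times. Subtracting the 0 h difference left 0 members higher at 1 h, 1 at 6 h and 0 at 10 h, and 4 lower at 10 h, in place of 2, 3, 1 and 9. A variance without a trend left 1 higher at 1 h, and 0 higher and 5 lower at 10 h. It left 1 higher in untreated and 4 higher in treated cells at 1 h against 0 h. For changes of the difference it gave 6 calls from 1 to 3 h, 0 from 3 to 6 h, 2 from 6 to 10 h and 3 from 3 to 10 h, in place of 10, 2, 4 and 6. The compared arrays alone gave 1 higher at 1 h, 0 higher in untreated cells at 1 h against 0 h and 11 changes from 3 to 10 h. Centring on array medians gave 1 change from 3 to 6 h, 2 from 6 to 10 h and 3 higher in untreated cells at 1 h, and testing every probe set gave 1, 2 and 3. The mean of a gene's probe sets gave 1 change from 6 to 10 h, 0 higher at 10 h, and 0 higher at 1 h and 1 lower at 3 h in untreated cells. Further quantile normalization gave 1 higher at 1 h and 4 changes from 3 to 6 h. Genes above the median level alone gave 5 changes from 3 to 6 h and 10 from 3 to 10 h. Taking all 4 arrays at 0 h as the baseline gave 14 higher in treated cells at 1 h. Apart from fewer arrays or genes in a fit, the cause of each shift was not tested. The shares of all genes called under each alternative are not given here. These counts, and those with 1 array left out, therefore stand without a background.

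Leaving out 1 array gave 5 to 10 changes from 1 to 3 h, 0 to 4 from 3 to 6 h, 0 to 3 from 6 to 10 h and 3 to 8 from 3 to 10 h. Between arms it gave 1 to 1 higher and 0 to 1 lower at 1 h, and 0 to 1 higher and 5 to 6 lower at 10 h. Against 0 h it gave 1 to 3 higher at 1 h and 1 to 2 lower at 3 h in untreated cells, and 4 to 6 higher and 0 to 1 lower at 1 h in treated cells.

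Treated and untreated cultures of the same number did not deviate together (correlations from -0.06 to 0.09), so the numbers were not taken to pair them. With a replicate block, 0 calls were lost and 11 members were higher in treated cells at 1 h, in place of 7. With 2 cultures per group, differences near or under the median SE of 0.126 could not be resolved for most genes. A call took a difference well above its SE, so a difference that was not called is not shown to be absent.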
